A study of Mus musculus with 16 samples.

Results

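The strongest open chromatin of mouse embryoid bodies, as ranked by ATAC-seq peak fold enrichment, was described in 599 regions. They were chosen by taking the 2000 peaks of highest fold enrichment over local background from each of the 4 embryoid body peak lists, merging peaks that overlapped by at least 1 bp, and keeping regions that were among the top 2000 in all 4 lists. The merged top peaks formed 4117 regions, of which 1980 were top in 1 list, 990 in 2 lists, 548 in 3 lists and 599 in 4 lists. All peaks of the 4 lists formed 149618 merged regions, of which 42539 had a peak in every list. The 41940 of these that were not among the 599 served as the comparison set and are called the other regions. Fold enrichment in embryoid bodies selected the 599 regions, so it is given here as a description without a test. Position, DNA letters and presence in embryonic stem cell (ESC) lists took no part in the choice.

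The study made ATAC-seq libraries, in which a transposase cuts and tags open DNA, from Rx:GFP knock-in ESCs and from embryoid bodies grown from them by the SFEBq method in GMEM medium with KSR, with matrigel added on the first day. Rx (Rax) is an eye field transcription factor, and SFEBq culture leads towards neural and retinal tissue. The 4 embryoid body libraries were 2 of the Wdr5 and p53 double knockout, whose labels give no day, and 2 of the parental Rx:GFP line, at day 4 by label. The 12 ESC libraries, all from cells kept in 2i+LIF, formed 6 groups of 2. In 3 groups, Wdr5 and p53 double knockout ESCs carried stably transfected backbone plasmid, WDR5 S91K-Y191F plasmid or wild-type WDR5 plasmid (WDR5WT); the series title names the rescue protein as human WDR5. The other groups were p53 knockout clone C9, p53 knockout clone H9 and parental ESCs. All lines share the Rx:GFP knock-in, and the double knockout lines lack p53 as well as Wdr5. Embryoid bodies lacking p53 alone are not analysed here, so the effects of the 2 deletions on embryoid bodies cannot be told apart. Each p53 knockout group is 1 clone, and the labels do not say whether the double knockout lines are clones or whether replicates were separate cultures. Every p-value below therefore measures the spread between these libraries, which may be technical.

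Open chromatin peaks fall mainly at promoters, where RNA polymerase II starts transcription, and at distal elements such as enhancers and insulators. Promoters of widely expressed genes are open in most cell types, whereas distal elements differ more between cell types. A fold enrichment over local background measures the height of a peak relative to its surroundings, which is a different quantity from the number of reads in it or the width of the open stretch. WDR5 holds together the histone methyltransferases of the COMPASS family, which act at promoters, and p53, encoded by Trp53, activates genes after DNA damage and other stress.

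The promoters that overlapped the 6 highest-fold regions with any promoter in the RefSeq table are printed to show what such a sequence looks like. The 6 were picked after their values were seen. Each runs 5′ to 3′ on the gene's strand, covering 250 bases before and 50 after the annotated start, in RefSeq's GRCm38.p6 (mm10). Capitals mark CCAAT boxes read on either strand, the letters that differed most, in percentage points, from the comparison set below. Wdr17 lies at chr8:54724319-54724618, minus strand. Cast, which encodes the calpain inhibitor calpastatin, lies at chr13:74770687-74770986, minus strand. The promoter of Akr1e1, an aldo-keto reductase gene, lies at chr13:4609115-4609414, minus strand. Lrif1, a gene for a chromatin protein that binds HP1, has its promoter at chr3:106684737-106685036, plus strand. Trim68, of the tripartite motif family, lies at chr7:102687278-102687577, minus strand. Scg3, which encodes the secretory granule protein secretogranin III, lies at chr9:75684007-75684306, minus strand.
Wdr17: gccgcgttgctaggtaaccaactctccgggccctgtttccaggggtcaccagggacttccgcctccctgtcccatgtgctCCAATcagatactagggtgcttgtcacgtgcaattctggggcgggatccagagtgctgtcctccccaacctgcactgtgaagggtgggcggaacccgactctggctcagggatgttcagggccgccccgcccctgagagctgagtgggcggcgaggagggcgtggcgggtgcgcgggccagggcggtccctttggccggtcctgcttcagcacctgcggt
Cast: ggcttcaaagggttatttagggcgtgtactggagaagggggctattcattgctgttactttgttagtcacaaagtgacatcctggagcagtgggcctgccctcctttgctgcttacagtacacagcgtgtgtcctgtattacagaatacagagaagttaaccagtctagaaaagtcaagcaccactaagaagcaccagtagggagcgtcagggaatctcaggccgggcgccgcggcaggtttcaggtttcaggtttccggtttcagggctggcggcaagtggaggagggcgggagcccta
Akr1e1: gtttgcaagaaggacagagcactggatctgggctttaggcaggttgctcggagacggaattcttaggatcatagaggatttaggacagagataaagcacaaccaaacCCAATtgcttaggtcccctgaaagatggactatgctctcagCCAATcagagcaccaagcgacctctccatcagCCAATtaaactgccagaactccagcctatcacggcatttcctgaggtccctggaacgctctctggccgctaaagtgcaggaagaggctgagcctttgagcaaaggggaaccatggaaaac
Lrif1: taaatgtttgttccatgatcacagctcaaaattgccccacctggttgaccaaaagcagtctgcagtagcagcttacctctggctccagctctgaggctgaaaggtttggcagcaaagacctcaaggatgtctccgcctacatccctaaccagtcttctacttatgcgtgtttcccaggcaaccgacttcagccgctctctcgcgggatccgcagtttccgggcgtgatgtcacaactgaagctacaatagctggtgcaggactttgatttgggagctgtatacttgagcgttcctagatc
Trim68: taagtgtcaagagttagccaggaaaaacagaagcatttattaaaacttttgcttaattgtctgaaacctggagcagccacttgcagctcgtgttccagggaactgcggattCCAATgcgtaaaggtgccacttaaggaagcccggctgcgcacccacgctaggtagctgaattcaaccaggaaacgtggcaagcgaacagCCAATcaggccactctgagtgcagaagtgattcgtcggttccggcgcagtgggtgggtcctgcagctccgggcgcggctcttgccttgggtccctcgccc
Scg3: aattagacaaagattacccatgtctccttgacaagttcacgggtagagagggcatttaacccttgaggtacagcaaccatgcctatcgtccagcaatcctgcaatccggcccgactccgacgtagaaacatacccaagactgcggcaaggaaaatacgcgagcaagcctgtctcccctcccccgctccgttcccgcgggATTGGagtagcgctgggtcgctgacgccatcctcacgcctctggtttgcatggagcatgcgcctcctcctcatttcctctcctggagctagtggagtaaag

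Akr1e1 held 3 CCAAT boxes, Trim68 held 2, Wdr17 and Scg3 held 1 each, and Cast and Lrif1 held 0. The Akr1e1 region had folds of 9.60 and 8.41 in double knockout embryoid bodies, against 9.07 and 9.90 in parental ones. The Trim68 region had folds of 9.63 and 8.65 in double knockout embryoid bodies, against 9.78 and 8.71 in parental ones. The Lrif1 region had folds of 8.30 and 9.70 in double knockout embryoid bodies, against 9.63 and 9.21 in parental ones. The 2 genotypes overlapped at all 3 regions. The regions at Wdr17, Cast and Trim68 each had a peak in 11 of the 12 ESC lists, and those at Akr1e1, Lrif1 and Scg3 in 9.

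The regions were more often at gene ends than other open chromatin of the same lists. Of the 599 regions, 277 (46.2%) lay within 1000 bp of an end, on either side, of a protein-coding gene, against 30.6% of the other regions. Almost all of these, 264 regions, overlapped an end, and 13 lay 1 to 1000 bp from it. The gene table gives the outer ends of a gene without strand, so a gene end is a start or a stop. By the promoter table, which does give strand, 268 regions (44.7%) overlapped an annotated promoter, against 26.1% of the other regions. Of the 277 regions at gene ends, 225 overlapped a promoter. A further 43 overlapped a promoter away from any outer end, 28 of them of a protein-coding gene with a start inside its body and 15 of other genes only. The regions at Wdr17 and Cast printed above are of this kind.

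The regions away from gene ends lay at larger distances from an end than the other regions away from ends did. Of the 322 regions away from gene ends, 126 were inside a protein-coding gene and 196 between genes, and their median distance to the nearest end was 74174 bp, against 29198 bp for the other regions away from ends. More than 1 kb and up to 10 kb from an end lay 8.18% of the 599 regions, against 18.6% of the other regions. At 100 to 500 kb the order was opposite, with 18.5% against 13.6%, and 35 regions (5.84%) lay farther than 500 kb, against 2.79%. The region most distant from a protein-coding gene end, nearest to Dsel, was 1811017 bp away.

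**Figure D1:**
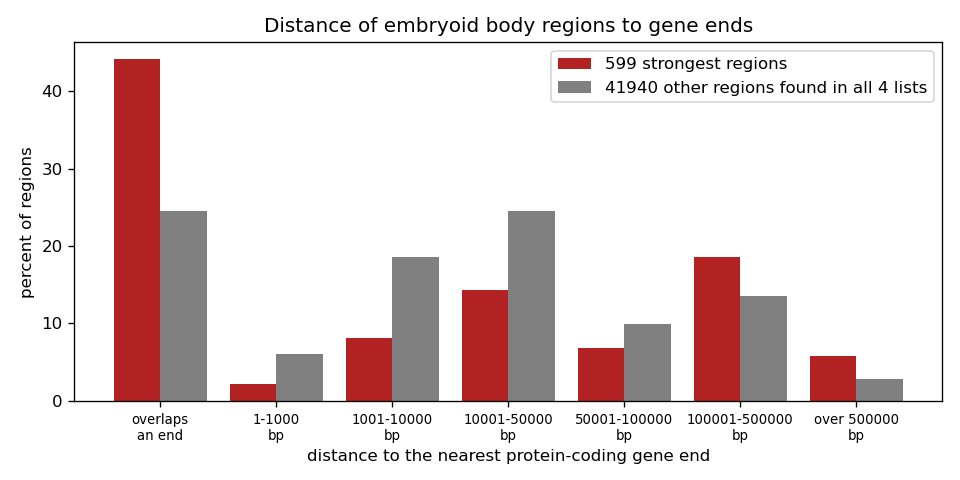
Percent of regions (vertical axis) by distance in bp to the nearest protein-coding gene end (horizontal axis), for the 599 strongest embryoid body regions (red) and the 41940 other regions found in all 4 lists (grey). The strongest regions are the more frequent class where an end is overlapped, at 44.1% against 24.5%, and beyond 100 kb, and the less frequent class between.

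Within the 599 regions, the share at gene ends was lower at higher fold. Of the 100 regions of highest mean fold, 23 were at gene ends and 47 were more than 100 kb from one. Of the 100 regions of lowest mean fold, 64 were at gene ends and 7 more than 100 kb away. The overall share at gene ends depends on the column used for ranking. When the lists were ranked by the authors' −log10 p in place of fold, 818 regions were top in all 4 lists and 74.7% of them were at gene ends. They shared 315 regions with the fold-ranked set, which is 52.6% of the fold-ranked and 38.5% of the p-ranked regions. The fold-ranked regions had a median width of 718 bp, against 937.5 bp for the p-ranked ones.

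Widths are given as a description, because the sets compared were merged from different peaks. The 599 regions were merged from top peaks only, and the other regions from all peaks of the embryoid body lists. Weaker peaks could thus widen the other regions but not the 599, so their widths are not like measures. The 599 regions had a median width of 718 bp (quartiles 587 and 846.5 bp), and the other regions had 701 bp (quartiles 515 and 952 bp). At gene ends the median was 798 bp for the strong regions, against 965 bp for the other regions. Away from gene ends the medians were 633 bp and 609 bp in the same order. How much of these gaps comes from the merging was not tested. The widest of the 599 was a region of 1334 bp between genes, nearest to Nxph1, a neurexin ligand gene. The regions at Stxbp5l, a syntaxin-binding protein gene, and Cul3, a ubiquitin ligase scaffold, followed with 1178 and 1089 bp. The narrowest had 77 bp, near the end of the gene for the H2A.Z-binding protein Pwwp2a, then 140 bp (nearest to Vmn2r87) and 231 bp (nearest to Gm39469).

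Chromosome X held 51 of the 599 regions (8.51%), against 2.38% of the other regions. Every embryoid body list contributed. X peaks made up 5.95% and 6.35% of the top 2000 peaks and 1.86% and 2.07% of the remaining peaks in double knockout embryoid bodies. In parental embryoid bodies they made up 7.50% and 6.55% of the top 2000 and 1.87% and 2.00% of the rest. With 1000 or 4000 peaks taken per list the X share was 7.75% and 6.41%. Ranked by −log10 p, however, 13 of the 818 regions (1.59%) were on X. Of the 51 X regions, 28 were at gene ends and 40 had a peak in 6 or more ESC lists. Chromosome 3 held 60 regions (10.02% against 5.35%), and chromosome 11 held 21 (3.51% against 6.57%).

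The 15 regions of highest mean fold were all away from protein-coding gene ends. The strongest, on chromosome 2 at 95448800 to 95449624, was 868545 bp from Lrrc4c, which encodes a synaptic adhesion protein. Its fold was 10.7 and 8.03 in double knockout embryoid bodies, against 10.9 and 11.01 in parental ones. It was the first peak of both the first double knockout and the second parental list but stood at place 440 in the second double knockout list. The second, 1389474 bp from Zeb2, a zinc finger transcription factor of neural and neural crest development, had folds of 9.26 and 10.4 in double knockout embryoid bodies, against 11.02 and 9.69 in parental ones. Its place was 21 or better in every list. The third lay inside Adgrb3, an adhesion receptor gene of neurons, 32074 bp from the end of Gm20172, with folds of 9.28 and 10.6 in double knockout embryoid bodies, against 10.3 and 9.66 in parental ones. The nearest genes are given as landmarks, since nothing in the lists ties a distal peak to a gene.

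The region 177000 bp from Aasdhppt, a phosphopantetheinyl transferase gene, had folds of 9.21 and 9.54 in double knockout embryoid bodies, against 11.6 and 9.02 in parental ones. The region inside Kcnt2, a sodium-activated potassium channel gene, had 7.91 and 9.13 in double knockout, both below the 10.7 and 10.4 of parental embryoid bodies. The region 40434 bp from Kif16b, an endosomal kinesin gene, had 9.94 and 11.6 in double knockout, both above the 9.23 and 7.92 of parental embryoid bodies. That region overlapped or lay within 1000 bp of the pseudogene Rbmx2-ps. The rest of the 15 were nearest to Ccer1, N6amt1, Pcdh7, Csmd3, Adcyap1, Sh3glb1, Ptbp2, Oxsm and Acvr2a. Of the 15, those near Csmd3, Kcnt2 and Sh3glb1 lay inside the gene named.

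**Figure D2:**
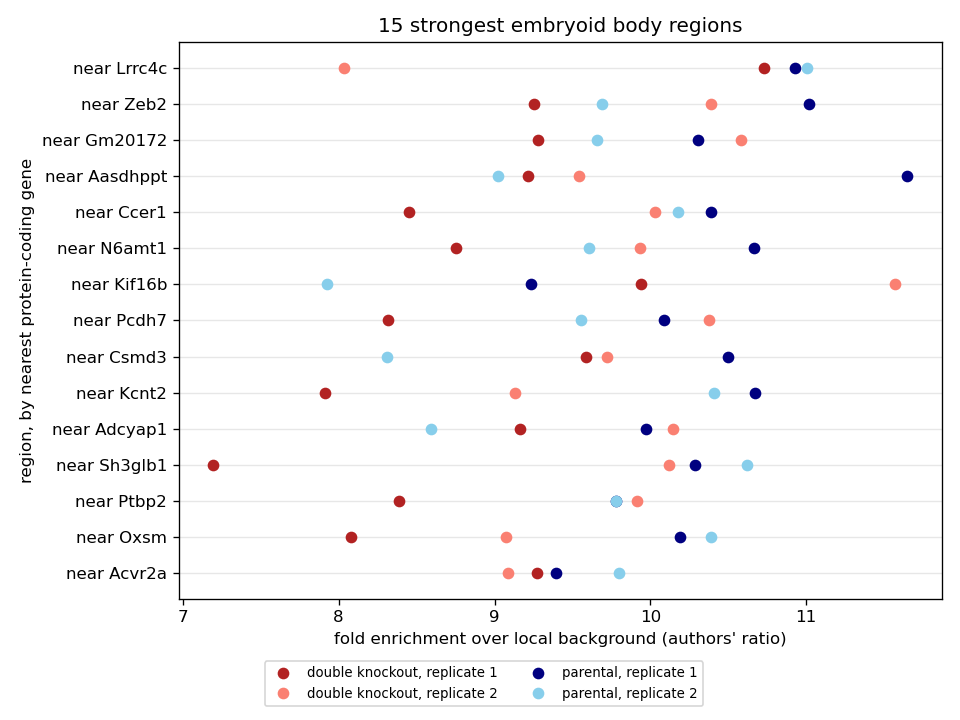
Fold enrichment over local background, the authors' ratio (horizontal axis), of the 15 regions of highest mean fold, 1 row per region named by its nearest protein-coding gene, with 1 point per library: double knockout embryoid bodies in dark and light red, parental ones in dark and light blue. Values run from 7.20 (near Sh3glb1, double knockout replicate 1) to 11.6, and the genotypes overlap at 8 of the 15 regions.

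The strongest regions at gene ends reached nearly the same folds. The region at Cdh10, a cadherin gene, had 9.54 and 9.04 in double knockout embryoid bodies, against 9.74 and 8.80 in parental ones. The region 340 bp from Mbtps2, the site-2 protease gene on X, had 8.10 and 9.74 in double knockout embryoid bodies, against 9.23 and 8.93 in parental ones. The region shared by Mospd2 and the Fanconi anaemia gene Fancb had 7.93 and 9.08 in double knockout, both below the 9.28 and 9.61 of parental embryoid bodies. Next came the ends of Ano3, Pnp (purine nucleoside phosphorylase), 2010315B03Rik, Zfp619, Zfp53 and Agbl4.

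The 277 regions at gene ends touched 310 of the 21887 protein-coding genes (1.42%). A single gene end was touched by 243 regions, and 34 regions touched the ends of 2 genes. No gene of the developmental lists was among the 310. Of 139 genes in 8 lists (for naive and for formative pluripotency, for neuroectoderm and eye field, for mesoderm, endoderm and trophectoderm, and for fibroblasts), 104 had a gene end peak in all 4 embryoid body lists, yet 0 had one of the 599 regions at an end. At the background share of 1.42%, 139 genes would give few. Also at 0 were 28 p53 targets, 20 COMPASS and MLL complex genes, 47 genes of Wnt, Nodal, BMP and FGF signalling and 30 cell cycle regulators. Lists this short would be at or near 0 at the background share of 1.42% too, so their counts do not set them apart. The 1106 olfactory receptor genes were at 0 too, but only 20 of them had a gene end peak in all 4 embryoid body lists.

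Lists of housekeeping genes had few genes with a region, and counts this small do not set a list apart. The shares of the lists lay on both sides of the 1.42% of all protein-coding genes that had a region. That share is over all 21887 genes, of which 13398 had a gene end peak in all 4 embryoid body lists. The 71 translation factor genes and the 58 RNA polymerase and mediator genes had 0. Of 85 cytosolic ribosomal protein genes, Rpl27 alone had a region (1.18%), and of 78 mitochondrial ribosomal protein genes, Mrps14 alone (1.28%). Single genes also came from 39 proteasome subunit genes (Psmd8, 2.56%), 77 splicing factor and hnRNP genes (Hnrnpc, 1.30%) and 94 respiratory chain genes (Ndufa12, 1.06%). The 23 ubiquitously expressed genes had 1 (Pgk1, 4.35%), as did the 172 ubiquitin conjugation genes (Fbxo48, 0.58%). The 53 RNA helicase genes had 2 (3.77%, Ddx24 and Dhx29). The 375 solute carrier genes had 3 (0.8%), all of the mitochondrial carrier family (Slc25a14, Slc25a27 and Slc25a30). Of the 31 lists, 21 had 0 genes. The most genes came from zinc finger genes named Zfp, with 12 of 394 (3.05%), most of which encode DNA-binding proteins of the Krüppel type. Zfp genes lie in clusters of similar copies, and how reads that match several copies were handled is not given in the sources used here, so their values are uncertain.

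The Pgk1 region, at the promoter of a glycolytic enzyme gene on X, had folds of 7.29 and 8.10 in double knockout embryoid bodies, against 7.46 and 7.81 in parental ones. The Rpl27 region, at a gene for a protein of the large ribosomal subunit, had 6.70 and 7.06 in double knockout, both below the 7.09 and 7.41 of parental embryoid bodies. The Zfp994 region was opposite, with 9.41 and 9.11 in double knockout, both above the 7.63 and 8.26 of parental embryoid bodies. After each list's median log2 fold was subtracted, the genotypes overlapped at Pgk1 and Rpl27 but not at Zfp994.

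The strongest embryoid body regions were held by ESC lists far more often than the other regions. An ESC list holds a region when at least 1 of its peaks overlaps it. The 599 regions had a median of 8 of the 12 ESC lists, against 2 lists for the other regions. A peak in 8 or more ESC lists was found at 403 regions (67.3%), against 19.3% of the other regions. A peak in no ESC list was found at 51 regions (8.51%), against 39.9% of the other regions. All 12 lists held 13 regions (2.17%), against 0.434% of the other regions. The count for 12 lists was set by 1 library: without backbone replicate 1, whose list was the shortest, 13.7% of the regions were in all remaining lists. Ranked by −log10 p, 10.5% of the regions were in all 12 lists and 1.47% in none.

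The difference was present in every ESC library. Averaged over the 12 libraries, 62.1% ± 31.0 of the 599 regions were held, against 28.2% ± 19.2 of the other regions (SD, n = 12). The difference was 33.9 ± 13.8 percentage points and was positive in 12 of 12 libraries (two-sided exact sign-flip permutation test, p = 0.000488, the smallest this design allows; 0.000586 adjusted over 6 such tests by the Benjamini-Hochberg method). Over the 6 group means the exact permutation p was 0.03125, also the smallest possible. At gene ends 77.0% were held against 46.8% of other regions, and away from them 49.2% against 19.98%, with higher values in 12 of 12 libraries for both (exact permutation p = 0.000488 each, 0.000586 adjusted). With every ESC list cut to its 1535 highest-signal peaks, the length of the shortest, 14.6% were held against 2.43% (12 of 12 libraries, exact permutation p = 0.000488, 0.000586 adjusted).

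Within ESC lists, peaks on the 599 regions ranked above peaks on the other regions in 11 of 12 libraries. The median percentile by signal of the peaks on the 599 regions was 71.7 on average over the libraries, where 100 is the strongest peak of a list, against 53.01 for peaks on the other regions. The difference of 18.7 ± 9.25 percentile points had an exact sign-flip permutation p of 0.000977 (0.000977 adjusted). The exception was backbone replicate 1, which held 14 of the 599 regions and where their median percentile was 26.3, a difference of -1.01 points. In backbone replicate 2 the median percentile was 42.0, also in the lower part of the list, against 38.2 for the other regions. Signal in ESC lists and fold in embryoid body lists are different scales and were never set side by side.

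**Figure D3:**
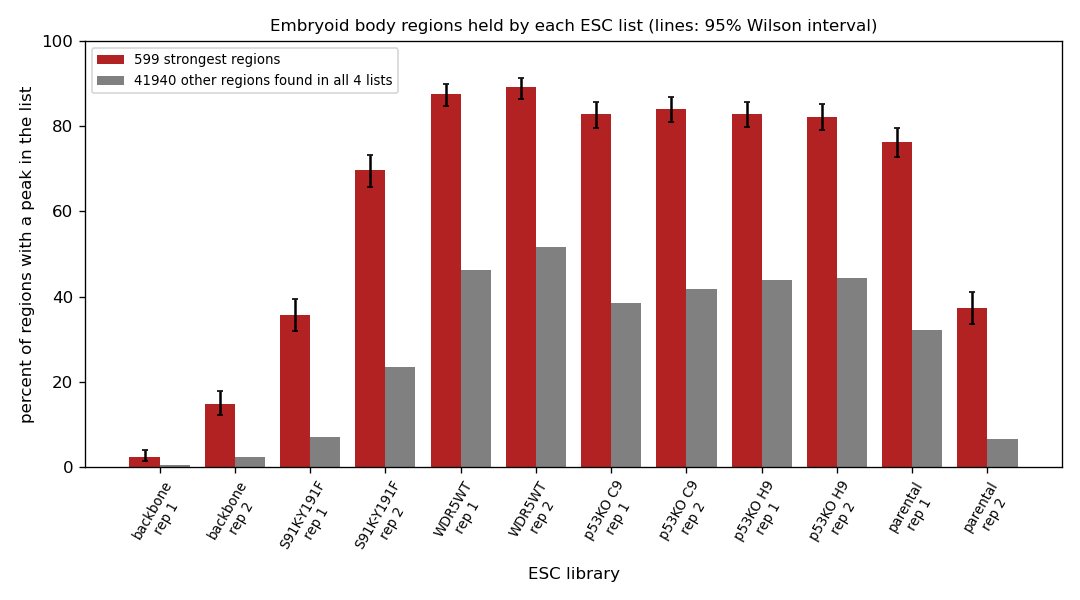
Percent of regions with a peak in each of the 12 ESC lists (vertical axis, libraries along the horizontal axis), for the 599 strongest embryoid body regions (red, with 95% Wilson intervals) and the 41940 other regions (grey). The red bar is the taller in every library, between 2.34% against 0.525% in backbone replicate 1 and 89.1% against 51.5% in WDR5WT replicate 2.

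Presence in ESCs differed with position, among the 599 regions as among the other regions. Of the 277 regions at gene ends, 0 were absent from every ESC list, and 258 (93.1%) were in 8 or more lists, against 14.3% and 40.05% of the other regions at gene ends. All 6 lists of the p53 knockout clones and WDR5WT ESCs held 273 of them. Of the 322 regions away from gene ends, 51 (15.8%) were in no ESC list and 145 (45.0%) in 8 or more, against 51.2% and 10.2% of the other regions away from ends. Per library, 77.0% of the regions at gene ends and 49.2% of those away from them were held on average, a difference of 27.9 ± 11.6 points, positive in 12 of 12 libraries (exact sign-flip permutation p = 0.000488, 0.000586 adjusted). The same difference among the other regions was 26.8 ± 14.5 points, also positive in 12 of 12 libraries. Among the 279 regions that were neither at a gene end nor at an annotated promoter, 170 (60.9%) were in 6 or more ESC lists, against 21.3% of the other regions of that kind.

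**Figure D4:**
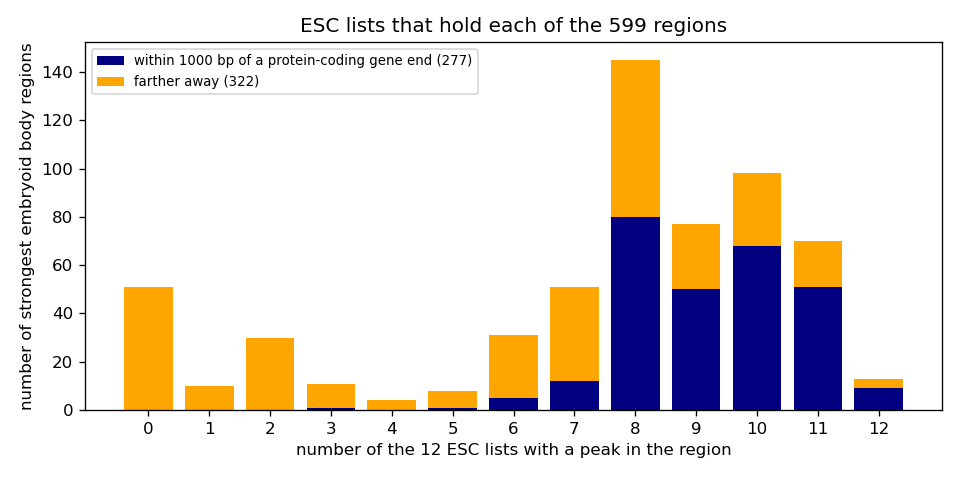
Number of the 599 regions (vertical axis) by the number of ESC lists with a peak in them (horizontal axis, 0 to 12), stacked by position: within 1000 bp of a protein-coding gene end (blue) or farther away (orange). The 51 regions at 0 lists are all orange, and the highest bar, 145 regions, is at 8 lists.

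The 13 regions in all 12 ESC lists included 9 at gene ends. These were at Desi2, Hsd17b12 (a fatty acid elongation enzyme), Stt3a (a catalytic subunit of oligosaccharyltransferase), Ghitm, Tbc1d23, Gm51425, Zfp960, Gm5165 and Pgk1. The other 4 lay nearest to Cntnap5a, Frg1 (inside Asah1, the acid ceramidase gene), Trim43c and Cetn3 (inside the gene, a centrin). The Cntnap5a region was 834408 bp from a gene end, and its folds were 6.83 and 7.49 in double knockout, both below the 7.69 and 8.29 of parental embryoid bodies. The Stt3a region had folds of 7.93 and 8.41 in double knockout embryoid bodies, against 7.61 and 8.26 in parental ones.

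The share of the 599 regions held is given here beside the length of each list. Backbone ESCs held 2.34% and 14.7% of the 599 regions, with lists of 1535 and 2492 peaks. S91K-Y191F ESCs held 35.6% and 69.6%, with 5174 and 16257 peaks, and WDR5WT ESCs held 87.6% and 89.1%, with 29779 and 32709 peaks. Clone C9 held 82.8% and 84.1%, clone H9 83.0% and 82.3%, and parental ESCs 76.3% and 37.2%. The lists of the 2 clones had between 26305 and 31782 peaks, and the parental lists 24367 and 5330. Depth is unknown for all lists, and its part in these differences was not tested. WDR5WT replicate 1 held more of the regions than the longer lists of clone H9 and of clone C9 replicate 2. The 2 parental libraries differed more from each other than parental replicate 1 did from the clones.

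Restoring WDR5 was compared through the plasmid groups. S91K-Y191F ESCs held 52.6% ± 24.1, against 8.51% ± 8.74 in backbone ESCs (SD, n = 2 each), a difference of 44.1 points. WDR5WT ESCs held 88.4% ± 1.06, which was 79.9 points above backbone. The difference of S91K-Y191F minus WDR5WT ESCs was -35.8 points. The groups did not overlap in any of these 3 comparisons, but the two-sided exact permutation p was 0.333 for each, the smallest that 2 libraries against 2 allow. At equal list length the differences were 9.10, 12.7 and -3.59 points, smaller than at full length but of the same sign.

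Loss of p53 alone and of both proteins was compared with the same measure. The 4 p53 knockout libraries held 83.1% ± 0.777 (SD, n = 4), against 56.8% ± 27.6 in parental ESCs (SD, n = 2), a difference of 26.3 points (exact permutation p = 0.0667, the smallest for 4 against 2; 0.200 adjusted over the 6 comparisons). Without parental replicate 2 that difference was 6.76 points. The difference of backbone minus parental ESCs was -48.2 points (exact permutation p = 0.333), and that of backbone minus p53 knockout ESCs was -74.5 points (exact permutation p = 0.0667, 0.200 adjusted). At equal list length the 3 differences were 5.72, -7.68 and -13.4 points. None of the 6 comparisons could reach 0.05 after adjustment, and none did.

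The 51 regions with no peak in any ESC list were all away from gene ends and from annotated promoters. Of these, 14 lay inside protein-coding genes and 37 between genes, and 30 were more than 100 kb from an end. Their distances ran between 3003 bp and 1811017 bp with a median of 174898 bp, and their median width was 573 bp. Median folds were 6.92 and 7.93 in double knockout embryoid bodies, against 8.56 and 7.96 in parental ones. The 5 of highest fold were nearest to Zeb2, Aasdhppt, Ptbp2 (a neuronal splicing regulator), Pcdh17 (a protocadherin) and Adgrl3 (latrophilin 3, a neuronal adhesion receptor). The Ptbp2 region, on chromosome 3 at 120176624 to 120177106, had folds of 8.39 and 9.91 in double knockout and 9.78 in each parental library. The Adgrl3 region lay inside the gene, with 8.65 and 9.31 in double knockout embryoid bodies, against 9.76 and 9.20 in parental ones. The Pcdh17 region had 9.02 and 8.12 in double knockout, both below the 9.75 and 10.6 of parental embryoid bodies, but the genotypes overlapped there after list medians were subtracted. At the Ptbp2 and Adgrl3 regions that subtraction put both double knockout values below both parental ones. At the Zeb2 and Aasdhppt regions the genotypes overlapped before and after it. Since ESC lists are shorter than embryoid body lists throughout, a missing peak says that none was called there, not that the DNA was closed.

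Embryoid body genotypes are set side by side without a test, because these folds chose the regions. Double knockout lists held 78106 and 93646 peaks and parental lists 90436 and 75673. Replicates of a genotype shared more top regions than libraries of different genotypes did, with 1098 shared by the double knockout libraries, 1237 by the parental ones and 921 to 993 between genotypes. The lowest fold in the top 2000 was 6.13 and 6.86 in double knockout and 6.99 and 6.69 in parental lists. Median folds of the 599 regions were 7.03 and 7.77 in double knockout embryoid bodies, against 8.10 and 7.75 in parental ones. Over all peaks the medians were 3.49 and 3.66 in double knockout and 3.46 and 3.54 in parental lists.

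Both double knockout folds lay above both parental ones at 25 of the 599 regions (4.17%), against 15.9% of the other regions. Both lay below at 234 regions (39.1%), against 27.6% of the other regions. After each list's median log2 fold over the 42539 regions was subtracted, these counts were 44 (7.35%, against 20% of the other regions) and 257 (42.9%, against 25.4%). The median difference in log2 fold, double knockout minus parental, was -0.10 over the 599 regions and -0.05 over the other regions as deposited, and -0.07 and -0.02 after list medians were subtracted. By mean log2 fold as deposited, double knockout was the lower genotype at 506 of the 599 regions (84.5%) and at 59.1% of the other regions, and after subtraction at 459 (76.6%) and 53.4%. Among the 51 regions absent from ESC lists it was the lower genotype at 46 (90.2%) as deposited and at 43 (84.3%) after subtraction. The choice of the 599 regions bears on all these shares, since the lowest fold it let in differed by list. That fold was 6.13 and 6.86 in double knockout and 6.99 and 6.69 in parental lists. Subtracting list medians need not remove such a gap among the strongest peaks. How much of the contrast with the other regions comes from the choice was not tested. In bulk libraries, fewer cells with an open region and a less open region in each cell cannot be told apart. The labels give no day for the double knockout, so genotype and stage cannot be told apart either.

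The regions that differed most between genotypes illustrate the size. The region inside Ankib1, a ubiquitin ligase gene, had folds of 6.32 and 7.27 in double knockout embryoid bodies, against 9.77 and 9.84 in parental ones, a log2 difference of -0.53, and no ESC peak. The region 86122 bp from Gm28710 had 6.70 and 8.19 in double knockout embryoid bodies, against 10.4 and 9.77 in parental ones, and that inside Pak3, a neuronal kinase gene on X, had 6.32 and 7.69 against 9.25 and 9.37. The region 195132 bp from Sp8, a transcription factor of limb and forebrain, had 6.14 and 7.22 in double knockout embryoid bodies, against 9.06 and 8.60 in parental ones. A further region near Pcdh17, 556747 bp from its end, had 6.48 and 8.16 against 9.43 and 9.77. In the other direction the largest log2 difference was 0.33, at the region near Kif16b described above. The region near Chodl followed with 0.27, and those near the transcription factor gene Tcf4 and near Rp1, a photoreceptor microtubule protein gene, with 0.23 each.

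At the threshold the values were continuous. Just inside lay the regions at Cul3, with folds of 6.39 and 7.41 in double knockout embryoid bodies, against 6.99 and 7.04 in parental ones, and at Cetn3, with 6.13 and 6.88 in double knockout embryoid bodies, against 7.03 and 6.77 in parental ones. Their worst places in a list were 1997 and 1993. Just outside lay a region 124565 bp from Tcerg1l, with 6.12 and 8.05 in double knockout embryoid bodies, against 8.87 and 8.12 in parental ones, and a region 342154 bp from Ghitm, with 7.44 and 6.85 in double knockout embryoid bodies, against 8.02 and 7.90 in parental ones. Their worst places were 2013 and 2018.

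Promoters at the regions had more CCAAT boxes than other open promoters. The 268 regions that overlapped a promoter covered 336 distinct promoters of 305 genes, out of 32817 in the table. CCAAT, the binding letters of the trimeric factor NF-Y, occurred on either strand in 192 of the 336 (57.1%, 95% Wilson interval 51.8 to 62.3%). It occurred in 37.0% of the 14241 promoters at the other regions and in 37.4% of all promoters. Promoters at the 599 regions had a median GC content of 58.7%, against 62.0% at the other regions and 52.7% in all promoters. Below the median GC of promoters at the other regions, 61.4% of promoters at the 599 regions and 43.3% at the other regions held CCAAT. Above it the shares were 48.7% and 31.0%. Overlapping promoters of the same gene share letters, and promoters are not replicates, so no test was made.

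Of the 12 motifs searched on both strands, none of which contains another, the rest differed less in percentage points. The GC box GGGCGG was in 67.0% of promoters at the 599 regions, 66.2% at the other regions and 35.6% of all promoters. The ETS letters CCGGAAG were in 20.8%, 16.3% and 8.86% in the same order, and the E-box CACGTG in 11.6%, 10.2% and 7.15%. The CTCF core AGGGGGC was in 14.9%, 17.9% and 10.6%, and the TATA box TATAAA in 5.36%, 6.06% and 13.6%. The NRF1 letters (GCATGCGC) were in 4.46%, 5.13% and 2.71%, and the CREB letters (TGACGTCA) in 2.68%, 3.17% and 1.79%. The YY1 letters (AAGATGGC) were in 2.98%, 3.97% and 2.74%, and the palindrome TCTCGCGA in 2.38%, 2.07% and 0.993%. The AP-1 letters (TGANTCA) were in 5.65%, 4.09% and 7.81%, and the POU letters (ATGCAAAT) in 2.98%, 1.40% and 1.74%. As a ratio to the other regions the POU letters, in 10 of the 336 promoters, differed more than CCAAT. A match is a run of letters and not a measured binding site.

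**Figure D5:**
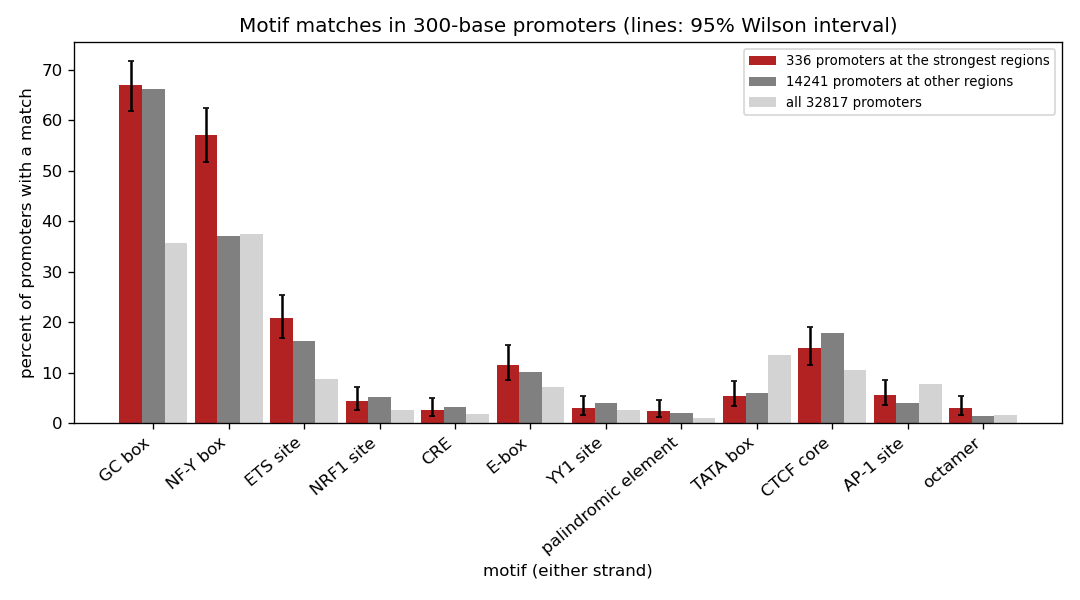
Percent of 300-base promoters with a match on either strand (vertical axis) for 12 motifs named by their factor or element (horizontal axis), in the 336 promoters at the strongest regions (red, with 95% Wilson intervals), the 14241 at other regions (grey) and all 32817 (light grey). The NF-Y box, which is CCAAT, stands at 57.1% in red against 37.0% in grey, the widest gap between these sets.

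Gene end peaks of marker genes were present in all 4 embryoid body lists for several lineages. Of the eye field genes, 4 and 4 of 5 had one in double knockout embryoid bodies, against 5 and 5 in parental ones, and all 4 mesoderm genes had one in every list. Naive and core pluripotency genes had 8 and 8 of 10 in double knockout embryoid bodies, against 9 and 9 in parental ones, and 3 of 4 fibroblast genes had one in every list. Formative pluripotency genes had 4 and 5 of 5 in double knockout and 5 and 5 in parental lists, and neuroectoderm genes 6 and 5 of 6 against 6 and 6. Endoderm genes had 2 and 2 of 4 in double knockout and 3 and 2 in parental lists, and trophectoderm genes 2 and 2 of 3 against 1 and 3. Of all 21887 protein-coding genes, 13398 had such a peak in all 4 lists. Genes of every lineage had such peaks, so the tissue label could not be checked from them. The Wdr5 end peak had folds of 3.85 and 4.06 in double knockout embryoid bodies, against 4.60 and 4.27 in parental ones, and the Trp53 end peak 3.78 and 4.55 in double knockout embryoid bodies, against 4.16 and 4.46 in parental ones. Neither was among the 599 regions, and an end peak outside the deleted part does not check a knockout.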

How the data were processed

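ATAC-seq peaks were analysed from 16 lists, called by the authors for each library alone. The submitters' processing notes name build mm10, the aligner Bowtie2 2.3.5, the peak callers MACS2 2.1.2 and Genrich 0.6, and also SAMtools and DESeq2, but give no tool's part in the work. In embryoid body lists the authors deposited, per peak, a ratio (fold enrichment over local background), −log10 p and q values and an integer score; the authors' names for these lists say that blacklisted regions were removed. Each deposited ESC list gives a score, a signal of unstated scaling and a −log10 p value. No list gives read counts, so depth is unknown and no interval for a peak's height was given. Wilson intervals cover counting of regions or promoters only.

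Chromosomes 1 to 19, X and Y were used, with ties in fold broken by −log10 p. Regions were compared by overlap of at least 1 bp, with gene ends of 21887 protein-coding genes and promoters from RefSeq's GRCm38.p6. Percents of regions held were compared over libraries by two-sided exact permutation tests, adjusted by the Benjamini-Hochberg method, after checks on simulated data. Python 3.11.15, numpy 2.4.6, pandas 2.3.3 and scipy 1.17.1 were used. Named regions were the 15 of highest mean log2 fold, the 5 in the fewest ESC lists, the 5 farthest from genes, the 3 widest and 3 narrowest, the 5 with the largest difference per genotype, 2 on each side of the threshold, and up to 3 per gene list. The strongest regions at gene ends, those in all 12 ESC lists and the printed promoters were added after values were seen. The regions and gene lists were chosen with earlier results of these data known. Alternatives were 1000 or 4000 peaks, ranking by −log10 p, 3 of 4 lists, 50% overlap, the centre 200 bp of each region, autosomes only, other gene end windows, equal list length, a replicate block and leaving out each library.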

Additional observations from a re-analysis of the deposited data

How the results depend on the processing

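The 599 regions became 258 with 1000 peaks per list, 1451 with 4000 peaks and 1147 when 3 of 4 lists sufficed, and 698 to 765 when 1 embryoid body library was left out. The share at gene ends was 38.4% with 1000 peaks, 52.0% with 4000 peaks and 74.7% when ranked by −log10 p (42.6 to 48.2% with 1 library left out). Genes with a region at an end numbered 109, 851 and 711 under these settings and 595 with 3 of 4 lists (345 to 420 with 1 library left out). Ranking by −log10 p gave 10.5% of regions in all 12 ESC lists and 1.47% in none. Leaving out 1 library gave 1.79 to 13.7% and 8.51 to 10.3%, the 13.7% without backbone replicate 1. CCAAT was in 63.0% of promoters with 1000 peaks (56.9 to 59.6% with 1 library left out). The cause of these shifts was not tested.

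The difference in share held was 12.1 points at equal list length, a setting added after seeing the data, 29.2 to 52.3 points under the other settings and 32.8 to 36.8 points with 1 library left out, and the rank difference 15.1 to 25.6 and 17.97 to 20.5 points, all past 0.05. The 6 differences between ESC groups kept their signs under every setting tried. With 1 library left out they were 27.0 to 61.1 (S91K-Y191F minus backbone), 73.7 to 86.1 (WDR5WT minus backbone), -52.8 to -18.8 (S91K-Y191F minus WDR5WT), -67.8 to -28.7 (backbone minus parental), 6.76 to 45.8 (p53 knockout minus parental) and -80.7 to -68.4 points (backbone minus p53 knockout). Deviations of same-numbered replicates had correlations of -0.47 to 0.27 over 15 pairs of groups, 2 of them above 0.1. With 2 libraries per group and lists of unequal length, these values cannot tell whether same-numbered replicates were prepared together. With the replicate block the difference of S91K-Y191F and backbone stayed 44.1 points with an exact permutation p of 0.5, the smallest possible. Depth is unknown for all lists, so an absent peak limits only what was called.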

Other observations

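Genes of cilia were among those with a strong region at an end. The families were looked up after the gene names had been seen, so they are a description of these regions without a test. Of 8 Bbs genes, which encode parts of the BBSome and its partners, 3 had a region (Bbs7, Bbs9 and Bbs12), and all 3 of Rpgr, Rpgrip1 and Rpgrip1l had one, where 1.42% of all protein-coding genes did. The Rpgrip1 region is shared with Hnrnpc and the Rpgrip1l region with Fto. The Bbs7 region had folds of 7.33 and 7.35 in double knockout embryoid bodies, both below the 8.97 and 8.69 of parental ones. The Rpgr region had 6.86 and 8.15 in double knockout embryoid bodies, against 7.85 and 6.98 in parental ones. Other families had fewer, with 1 of 14 Ift genes, 1 of 3 Tctn genes, 1 of 12 Dnah genes, 2 of 31 Cfap genes and 0 of 38 Cep genes.

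Of the 322 regions away from protein-coding ends, 35 lay within 1000 bp of the end of another annotated gene, 26 of them lncRNA genes and 9 pseudogenes. The same was not counted among the other regions, so whether this share is high or low is not known. Within 100 kb of another of the 599 regions lay 57 regions (9.52%), with no share for other regions to set beside it. On chromosome 17 the regions at Gm51425, Zfp960 and Gm5165, which start at 17004565, 17063541 and 17234314, all had a peak in every ESC list.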
